A study of Mus musculus with 15 samples.

Results

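The genes described here are 5 transcription factors of the islet endocrine lineages: the alpha cell factors Irx1, Irx2 and Pou3f4, the delta cell factor Hhex, and the ETS factor Etv1. They were chosen by name, and each has 1 entry among the 23699 entries of every library's table. The study sorted red fluorescent (RFP+) cells from mouse islets and asked how cells with high aldehyde dehydrogenase activity (ALDH+), read with the fluorescent substrate aldefluor, differ from those without it (ALDH-), with and without the Foxo transcription factors. RNA from 15 sorted populations was sequenced after poly-A selection with a TruSeq kit, and the values are FPKM, that is fragments scaled to transcript length and library size.

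The libraries fell into 4 groups. Control mice, triple heterozygous for FoxO 1, 3 and 4, gave 3 ALDH- and 2 ALDH+ libraries. Mice lacking all 3 factors, called Foxo knockout below, gave 5 ALDH- and 5 ALDH+ libraries. Of these libraries 9 came from mice with RIP-Cre and 6 from mice with Pdx-Cre, each set with controls and knockouts, and all mice had a mixed 129JC57BL/6 background. RIP-Cre uses the insulin promoter and acts in differentiated beta cells, whereas Pdx-Cre acts in the precursors of the whole pancreas, and in the RIP-Cre mice recombination of a Tomato reporter marked the cells red. The libraries driven by Pdx-Cre were control ALDH- 3, control ALDH+ 2 and Foxo knockout 4 and 5 of both populations. The methods describe 6-month-old RIP-Cre mice with islets pooled over many animals, and nothing gives the age or pooling of the Pdx-Cre libraries. They also describe control litters with floxed alleles but no RIP-Cre, or with RIP-Cre but no floxed alleles, which differs from the heterozygous genotype in the labels. The driver therefore cannot be told apart from anything else that differed between these sets of libraries. No label ties replicates to separate mice, so p-values measure the spread between libraries, which may be technical.

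The islet holds beta cells that make insulin, alpha cells that make glucagon, delta cells that make somatostatin, and rarer cells that make pancreatic polypeptide or ghrelin. All descend from endocrine progenitors, and each type keeps its own transcription factors. Irx1 and Irx2 are homeodomain proteins of the Iroquois family that are expressed in the alpha lineage, and Pou3f4, also called Brn4, is a POU homeodomain factor of early alpha cells that binds the glucagon promoter. Hhex is the homeodomain factor that delta cells require. Etv1 belongs to the PEA3 group of ETS factors, which act downstream of receptor kinase signalling and are turned over by the ubiquitin ligase Rfwd2, also called Cop1.

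Library checks bear on all values. Summed fragments were between 7492220 and 10058043 per library, with a median of 9281983. Foxo1 was lower in the knockouts (log2 fold change -2.57, limma p adjusted over all genes tested = 0.00186), whereas the Foxo3 transcript was not (-0.08), and Foxo4 was at most 1.34 FPKM. Aldh1a3, an aldehyde dehydrogenase, was higher in ALDH+ cells (3.63, adjusted p = 0.000284). Iapp, a beta cell product co-secreted with insulin, was between 33196 and 125094 FPKM in every library. The insulin genes themselves have no usable estimates in these tables. Gcg, the glucagon gene, reached 35838 FPKM in 1 Pdx-Cre library, and Ctrb1, an acinar protease, exceeded 100 FPKM in 3 Pdx-Cre libraries (control ALDH+ 2, Foxo knockout ALDH+ 5 and ALDH- 5).

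Irx1 was detected in 5 of 6 Pdx-Cre libraries and was close to 0 in all RIP-Cre libraries. In Pdx-Cre ALDH- cells its level was 0.991 FPKM in the control, and 1.23 and 3.84 FPKM in the knockouts. In Pdx-Cre ALDH+ cells it was 0.785 FPKM in the control, and 0 and 1.17 FPKM in the knockouts. Among the RIP-Cre libraries the highest value was 0.104 FPKM, and 6 of 9 libraries were at 0. The 9 RIP-Cre libraries together held 4 Irx1 fragments, against 150 in the 6 Pdx-Cre libraries. The lone Pdx-Cre library at 0 was Foxo knockout ALDH+ 4, in which 3 fragments would have given 0.156 FPKM. In these bulk libraries, fewer cells of a type and less RNA per cell cannot be told apart.

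Irx1 differed between the drivers in the exact test, although the libraries of the drivers overlapped. With FPKM rescaled to make the libraries comparable, the mean of log2(rescaled FPKM + 1) was 1.08 in Pdx-Cre and 0.03 in RIP-Cre libraries, a difference of 1.05 (two-sided exact permutation test of the driver within genotype and ALDH population, p = 0.00667, where the smallest possible p was 0.00167). Within ALDH- libraries the difference was 1.46, with no overlap (exact p = 0.0333, the smallest possible). Within ALDH+ libraries it was 0.64 (exact p = 0.2, smallest possible 0.05). Without the 3 libraries rich in Ctrb1, a choice made after seeing the data, it was 0.69 (exact p = 0.0833, smallest possible 0.0208). Over all libraries 15 exact tests were made, 1 for each gene and factor. A further 30 within 1 driver or 1 ALDH population, and 5 without the libraries rich in Ctrb1, were added after seeing the data, and none of these p-values is adjusted.

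Irx2 followed the same order at higher levels, and was above Irx1 in 14 of 15 libraries, with both at 0 in the remaining one. In Pdx-Cre ALDH- cells it was 3.52 FPKM in the control, and 1.64 and 5.48 FPKM in the knockouts. In Pdx-Cre ALDH+ cells it was 1.43 FPKM in the control, and 0.214 and 2.31 FPKM in the knockouts. Foxo knockout ALDH+ 4, the library without Irx1, was again the lowest of the 3 Pdx-Cre ALDH+ libraries. In RIP-Cre ALDH- cells Irx2 was 1.05 and 1.21 FPKM in the controls, and 0.0817, 0.215 and 1.11 FPKM in the knockouts. In RIP-Cre ALDH+ cells it was 0.187 FPKM in the control, and 0.216, 0.0788 and 0 FPKM in the knockouts. The RIP-Cre ALDH- libraries therefore divided into 3 near 1 FPKM and 2 knockouts near 0, whereas the 4 RIP-Cre ALDH+ libraries were all low.

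Irx2 was the 1 member called in the fit across all genes, but it reached the minimum level for testing, a mean rescaled FPKM of 1, through the Pdx-Cre libraries in which it was high, so the call is not independent of that choice. In a limma model of log2(rescaled FPKM + 1) with the 4 groups and the driver, it was higher in Pdx-Cre libraries by 1.20 ± 0.30 (SE), with a 95% interval of 0.56 to 1.84 and an adjusted p of 0.0204. The mean was 2.43 ± 1.85 FPKM in Pdx-Cre (SD, n = 6) and 0.461 ± 0.503 FPKM in RIP-Cre libraries (SD, n = 9), a ratio of 5.28. Of 11253 genes tested, 1095 passed in this comparison (9.73%), and 5.68% were higher in Pdx-Cre. Of the 5 members 3 were tested, since Irx1 and Pou3f4 had means below the minimum. The exact test of the driver gave 1.15 (p = 0.00333). The limma call was lost without control ALDH- 3 (1.20, adjusted p = 0.0577) or Foxo knockout ALDH+ 5 (1.07, adjusted p = 0.0617). Without Foxo knockout ALDH- 5, or without the 3 libraries rich in Ctrb1, Irx2 fell below the minimum level, and the exact test without those 3 gave 0.84 (p = 0.0417).

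Irx2 levels also differed between the ALDH populations in the exact test. Irx2 was lower in ALDH+ than in ALDH- libraries by 0.68 on the log2 scale (exact permutation of ALDH labels within genotype and driver, p = 0.0333, smallest possible 0.00139). Within RIP-Cre libraries the difference was -0.56 (exact p = 0.0333, smallest possible 0.0167), and within Pdx-Cre libraries -1.03 (exact p = 0.333, smallest possible 0.0833). In the limma fit it was -0.77 ± 0.32 (SE) with an adjusted p of 0.178, in a comparison in which 5.99% of genes passed and none of the 3 tested members did. The exact call was fragile. It was lost in 9 of 15 tests that each left out 1 library (control ALDH- 1, 2 or 3, control ALDH+ 1 or 2, Foxo knockout ALDH- 3 or 5, or Foxo knockout ALDH+ 3 or 4), and p then lay between 0.05 and 0.1.

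Irx1 and Irx2 are neighbours, at chr13:72095680-72101171 and chr13:72766426-72771642 in the mm9 coordinates of the tables, 665 kb apart. Fragments that match both genes could be shared between them in counting, so the longest identical run of their open reading frames was searched for in GENCODE transcripts of the GRCm38 build. It held 32 bases, positions 484 to 515 of the Irx1 frame of 1443 bases. This run is shown because it is the longest stretch that the reading frames have in common, and untranslated regions were not searched.

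Irx1 and Irx2, shared run: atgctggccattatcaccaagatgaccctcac

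The longest run shared by Irx2 and Irx5 was 65 bases. Irx3, Irx4, Irx5 and Irx6 were listed at 0 in every library, so 2 of the 6 Iroquois genes were detected in these cells.

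Pou3f4 was found in the 3 Pdx-Cre ALDH- libraries and in no other. Its level was 0.740 FPKM in the control (6 fragments), and 1.73 and 1.58 FPKM in the knockouts (16 and 14 fragments). All 3 Pdx-Cre ALDH+ libraries and all 9 RIP-Cre libraries were at 0. Counting limits this statement, since 3 fragments would have been between 0.275 and 0.374 FPKM in those libraries. The gene spans 1086 bases at chrX:108009804-108010889 (mm9), and its relatives Pou3f1, Pou3f2 and Pou3f3 were at 0 throughout.

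In ALDH- cells the Pdx-Cre mean of 1.35 ± 0.534 FPKM (SD, n = 3) was at least 4.39-fold higher than the level of 3 fragments per library in RIP-Cre cells. The exact test of the driver gave a difference of 0.61 over all libraries (p = 0.0333) and of 1.23 within ALDH- libraries (p = 0.0333, the smallest possible). Since all ALDH+ libraries were at 0, the ALDH- libraries alone set both p-values, which are therefore 1 result. The first call was lost in 8 of 15 tests that left out 1 library, the 8 being those that left out an ALDH- library of either driver, and p then lay between 0.05 and 0.1. Leaving out a RIP-Cre ALDH- library kept the difference at 0.61. In all 8 tests p was set by the smaller number of ALDH- arrangements left, so these losses reflect group sizes. Without the 3 libraries rich in Ctrb1 the difference was 0.75 and did not pass (exact p = 0.0833), again with fewer ALDH- arrangements left.

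Hhex was the best detected of the lineage factors and varied widely. In Pdx-Cre ALDH- cells it was 15.4 FPKM in the control, and 11.2 and 9.81 FPKM in the knockouts. In Pdx-Cre ALDH+ cells it was 9.31 FPKM in the control, and 0 and 6.84 FPKM in the knockouts. The 0 belonged once more to Foxo knockout ALDH+ 4, in which 3 fragments would have been 0.185 FPKM. In RIP-Cre ALDH- cells Hhex was 1.78 and 2.47 FPKM in the controls, and 3.60, 7.12 and 0.0616 FPKM in the knockouts. In RIP-Cre ALDH+ cells it was 1.55 FPKM in the control, and 6.22, 1.02 and 1.47 FPKM in the knockouts. The 3 Pdx-Cre ALDH- libraries lay above all 5 RIP-Cre ALDH- libraries, whereas the ALDH+ libraries of the drivers overlapped.

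The driver difference in Hhex was 1.27 ± 0.55 (SE) over all libraries in the limma fit, with a 95% interval of 0.11 to 2.44, and did not pass (adjusted p = 0.154). It was 2.04 ± 0.73 (SE) within ALDH- cells (adjusted p = 0.162), where 2.19% of genes passed but none of the 3 tested members did. Within ALDH+ cells it was 0.44 ± 0.76 (SE, adjusted p = 0.845), where 1.55% passed. The exact test gave 1.26 over all libraries (p = 0.085) and 2.03 within ALDH- libraries (p = 0.0333, the smallest possible). The call depended on single libraries. Without Foxo knockout ALDH+ 4 the limma difference was 1.85 (adjusted p = 0.0145) and the exact difference 1.84 (p = 0.00417). The exact test also passed without Foxo knockout ALDH+ 1 (1.41, p = 0.0389). Without the 3 libraries rich in Ctrb1 the limma difference was 0.80 (adjusted p = 0.664) and the exact difference 0.90 (p = 0.375).

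**Figure D1:**
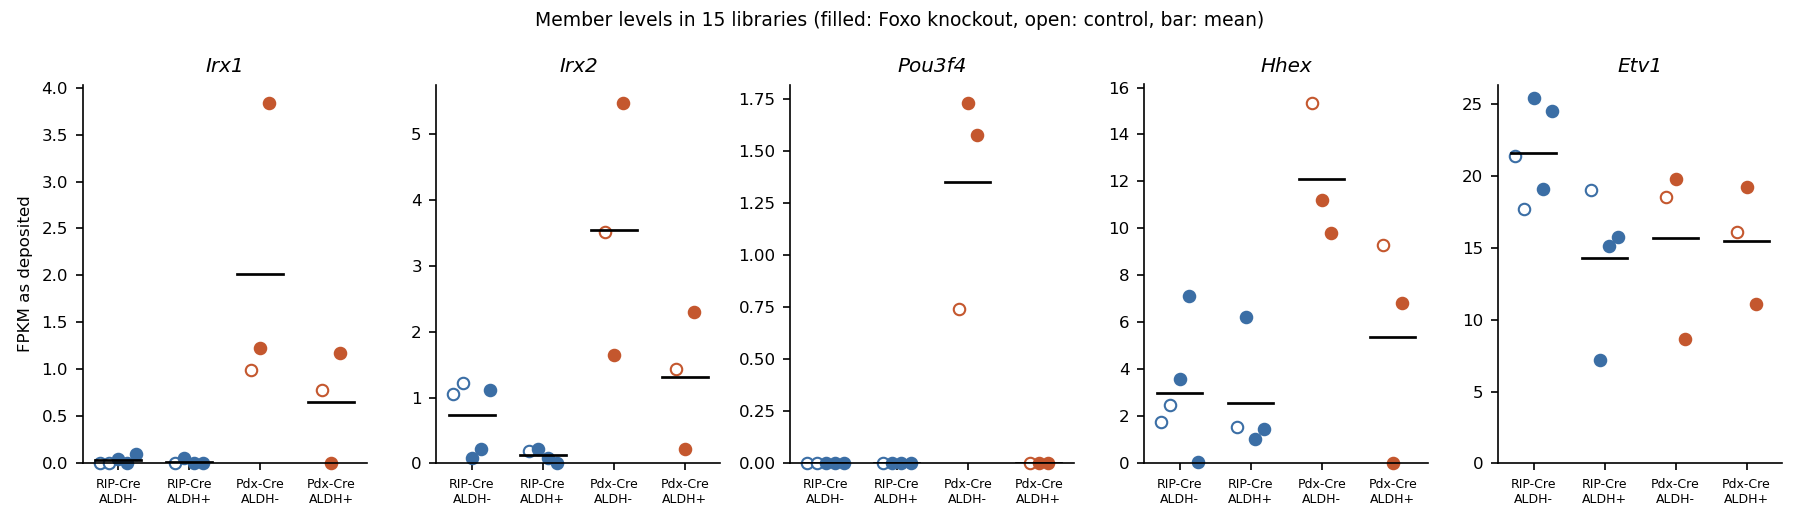
FPKM as deposited of each of the 5 genes (linear axes that differ between panels) in the 15 libraries, by driver and ALDH population, with filled points for Foxo knockouts, open points for controls and bars for means. Irx1, Irx2, Pou3f4 and Hhex are highest in Pdx-Cre ALDH- cells, where Pou3f4 is at 0.740 to 1.73 FPKM and at 0 elsewhere, whereas Etv1 is present at 7.21 FPKM or more in all libraries.

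In ALDH- cells, 4 of the 5 members (Irx1, Irx2, Pou3f4 and Hhex) had all 3 Pdx-Cre libraries above all 5 RIP-Cre libraries. Of 16928 genes above 0 in any library, 3.67% showed this separation, and 4.3% of the 11253 genes tested. The order of group means was the same for Irx1, Irx2 and Hhex: Pdx-Cre ALDH-, Pdx-Cre ALDH+, RIP-Cre ALDH-, RIP-Cre ALDH+. For Irx2 the means were 3.55 ± 1.92 (n = 3), 1.32 ± 1.05 (n = 3), 0.733 ± 0.539 (n = 5) and 0.120 ± 0.0995 FPKM (n = 4), with SDs. For Hhex they were 12.1 ± 2.89, 5.38 ± 4.82, 3.01 ± 2.63 and 2.57 ± 2.45 FPKM. For Irx1 and Irx2 the ranges of all neighbouring groups in this order overlapped. For Hhex they did too, except between the Pdx-Cre populations, with 9.81 FPKM or more in ALDH- and at most 9.31 FPKM in ALDH+ cells.

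Promoters were read from RefSeq for the members that moved together, to show whether they share any of 5 short motifs within 250 bases before and 50 after the start site (GRCm38.p6, plus strand). The table holds entries for Irx2, Pou3f4 and Hhex and for Etv1. The first 4 motifs, searched on both strands, were the forkhead core GTAAACA bound by Foxo proteins, the homeodomain core TAATTA, the ETS consensus CCGGAAGT and the TATA box TATAAA, which 3.65%, 5.29%, 3.89% and 13.6% of all 32851 promoters hold. None of these letters occurred in the windows of Irx2, Pou3f4 or Hhex. The CCAAT box CCAAT was added after the sequences had been seen, and does not overlap the others. It occurred in all 3 windows, and in 37.4% of all promoters. Capitals mark it on either strand.

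Irx2, chr13:72628570-72628869: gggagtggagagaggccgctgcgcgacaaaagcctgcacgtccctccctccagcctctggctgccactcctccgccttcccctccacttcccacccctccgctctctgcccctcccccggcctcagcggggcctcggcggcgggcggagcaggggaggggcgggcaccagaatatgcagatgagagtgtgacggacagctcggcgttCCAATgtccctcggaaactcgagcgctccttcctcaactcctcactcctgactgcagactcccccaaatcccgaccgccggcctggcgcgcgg

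Pou3f4, chrX:110814129-110814428: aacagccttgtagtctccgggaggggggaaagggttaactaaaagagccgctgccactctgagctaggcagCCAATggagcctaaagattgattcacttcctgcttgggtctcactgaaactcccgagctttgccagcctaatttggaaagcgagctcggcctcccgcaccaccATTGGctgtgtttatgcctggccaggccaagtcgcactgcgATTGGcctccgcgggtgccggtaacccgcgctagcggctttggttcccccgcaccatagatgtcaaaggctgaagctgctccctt

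Hhex, chr19:37434591-37434890: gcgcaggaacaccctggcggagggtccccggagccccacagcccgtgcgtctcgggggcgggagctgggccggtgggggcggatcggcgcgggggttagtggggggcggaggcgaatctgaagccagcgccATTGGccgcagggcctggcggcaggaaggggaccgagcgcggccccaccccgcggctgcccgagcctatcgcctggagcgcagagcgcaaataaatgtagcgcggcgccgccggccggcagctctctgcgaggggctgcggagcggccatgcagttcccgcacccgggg

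Counted from the start site, the CCAAT letters of Irx2 lay at -43. In Pou3f4 there were 3 matches, at -179 on the plus strand and at -76 and -35 on the minus strand, and in Hhex 1 match at -119 on the minus strand. The windows were rich in G and C, with 69.0% in Irx2, 57.7% in Pou3f4 and 75.7% in Hhex, against a median of 52.7% over all promoters. A match describes the letters only and is no evidence of binding.

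Etv1 behaved differently from the lineage factors. In RIP-Cre ALDH- cells it was 21.4 and 17.7 FPKM in the controls, and 25.5, 19.1 and 24.5 FPKM in the knockouts. In RIP-Cre ALDH+ cells it was 19.0 FPKM in the control, and 7.21, 15.1 and 15.7 FPKM in the knockouts. In RIP-Cre cells the populations thus overlapped only through the control ALDH+ library, which lay above 1 ALDH- control. In Pdx-Cre ALDH- cells Etv1 was 18.6 FPKM in the control, and 19.8 and 8.67 FPKM in the knockouts. In Pdx-Cre ALDH+ cells it was 16.1 FPKM in the control, and 19.3 and 11.1 FPKM in the knockouts. The lowest Pdx-Cre values belonged to Foxo knockout 5 of both populations, which are also libraries rich in Ctrb1.

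No comparison of Etv1 passed its test. The ALDH difference was -0.29 ± 0.23 (SE, 95% interval -0.78 to 0.21, limma adjusted p = 0.534), the driver difference -0.16 ± 0.22 (SE, interval -0.63 to 0.31, adjusted p = 0.698) and the knockout difference -0.22 ± 0.23 (SE, interval -0.71 to 0.27, adjusted p = 0.91). Within RIP-Cre libraries the ALDH difference was -0.61 (exact p = 0.05, smallest possible 0.0167), and within Pdx-Cre libraries it was 0.00 to 2 decimals (exact p = 1). Leaving out Foxo knockout ALDH- 5 moved the exact test of ALDH over all libraries from -0.37 (p = 0.158) to -0.51 (p = 0.0278). Etv1 spans chr12:39506845-39594802 with 2 start sites in the tables.

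Of the PEA3 list, which holds Etv1 with Etv4, Etv5, components of their ubiquitin ligase, and the Sprouty and Dusp6 inhibitors of receptor kinase signalling, 7 of 9 genes were tested and none passed by ALDH, genotype or driver, with medians of -0.12, -0.00 and 0.05 against -0.02, 0.01 and -0.01 over all genes. Etv5 was between 9.71 and 27.5 FPKM and was lower in Pdx-Cre cells by 0.45 (adjusted p = 0.112). Etv4 reached at most 0.71 FPKM. Rfwd2, the ligase that degrades PEA3 factors, was between 6.64 and 11.7 FPKM with a driver difference of -0.16 (adjusted p = 0.529).

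Loss of Foxo was not accompanied by a detectable change in any member. In this comparison 0.116% of genes passed, and none of the 3 tested members did. The limma differences were -0.29 for Irx2 (95% interval -0.97 to 0.38, adjusted p = 0.912) and -0.32 for Hhex (interval -1.54 to 0.90, adjusted p = 0.951). Exact tests gave 0.11 for Irx1 (p = 0.469), -0.38 for Irx2 (p = 0.267), 0.11 for Pou3f4 (p = 0.333), -0.35 for Hhex (p = 0.622) and -0.23 for Etv1 (p = 0.5). The Hhex interval reaches beyond 1 on the log2 scale, so a sizeable change was not detectable with these libraries. Controls and knockouts driven by Pdx-Cre both carried the alpha and delta factors, and Pou3f4 was present in the control at 0.740 FPKM. Of the delta list 1 of 5 tested genes was lower in the knockouts, the transporter regulator Fxyd6 (-1.10, adjusted p = 0.0271), named after its value was seen.

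The interaction tests called no gene in limma's fit (0% for both, with 511 genes for driver by ALDH and 476 for genotype by ALDH at an unadjusted p below 0.05). For Hhex the driver by ALDH interaction was -1.60 ± 1.05 (SE, adjusted p = 0.994) and for Irx2 -0.52 ± 0.61 (SE, adjusted p = 0.994). The genotype by ALDH interaction was 0.27 for Irx2, -0.52 for Hhex and -0.33 for Etv1 (adjusted p = 0.998 each). A difference in driver effect between ALDH- and ALDH+ cells was therefore not shown for the 3 tested members. Irx1 and Pou3f4 were not in this fit. Without the minimum level 0.0177% of genes passed for driver by ALDH, Pou3f4 among them (-1.21, limma adjusted p = 0.0115). Irx1 did not pass (-0.82, adjusted p = 0.935). Pou3f4 was at 0 in every library outside Pdx-Cre ALDH- cells, so those populations showed no spread for it.

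**Figure D2:**
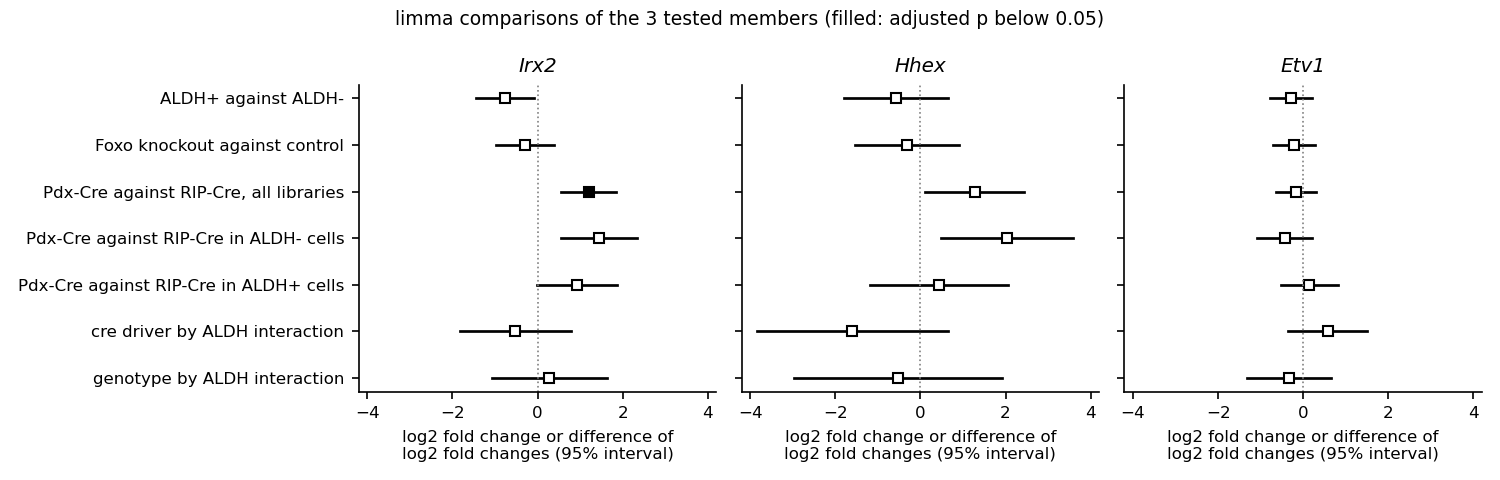
Differences on the log2(rescaled FPKM + 1) scale with 95% intervals for the 3 members above the minimum level in 7 limma comparisons, where the interaction lines show differences of log2 fold changes. Filled squares passed an adjusted p of 0.05, which holds for Irx2 between the drivers (1.20) alone.

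The hormone genes of the same lineages moved with the factors. Gcg was 35838 FPKM in the Pdx-Cre ALDH- control, and 17334 and 9533 FPKM in the knockouts. In Pdx-Cre ALDH+ cells it was 5822 FPKM in the control, and 268 and 598 FPKM in the knockouts. The RIP-Cre libraries were between 154 and 1016 FPKM, so Foxo knockout ALDH+ 4 and 5 lay within the RIP-Cre range. The driver difference of Gcg was 3.13 (limma adjusted p = 0.00549). Foxo knockout ALDH+ 5 held Irx1 and Irx2 above every RIP-Cre library but Gcg within their range, and Foxo knockout ALDH- 5 was the highest in Irx1 and Irx2 and the lowest of the 3 Pdx-Cre ALDH- libraries in Gcg.

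Sst, the somatostatin gene, was 13631 FPKM in the Pdx-Cre ALDH- control, and 9792 and 8245 FPKM in the knockouts. In Pdx-Cre ALDH+ cells it was 2981 FPKM in the control, and 752 and 1156 FPKM in the knockouts. RIP-Cre libraries were between 412 and 1297 FPKM, and the driver difference was 2.35 (adjusted p = 0.00769). In Pdx-Cre ALDH- cells Hhex and Sst had the same order, with the control above knockout 4 and knockout 4 above knockout 5.

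**Figure D3:**
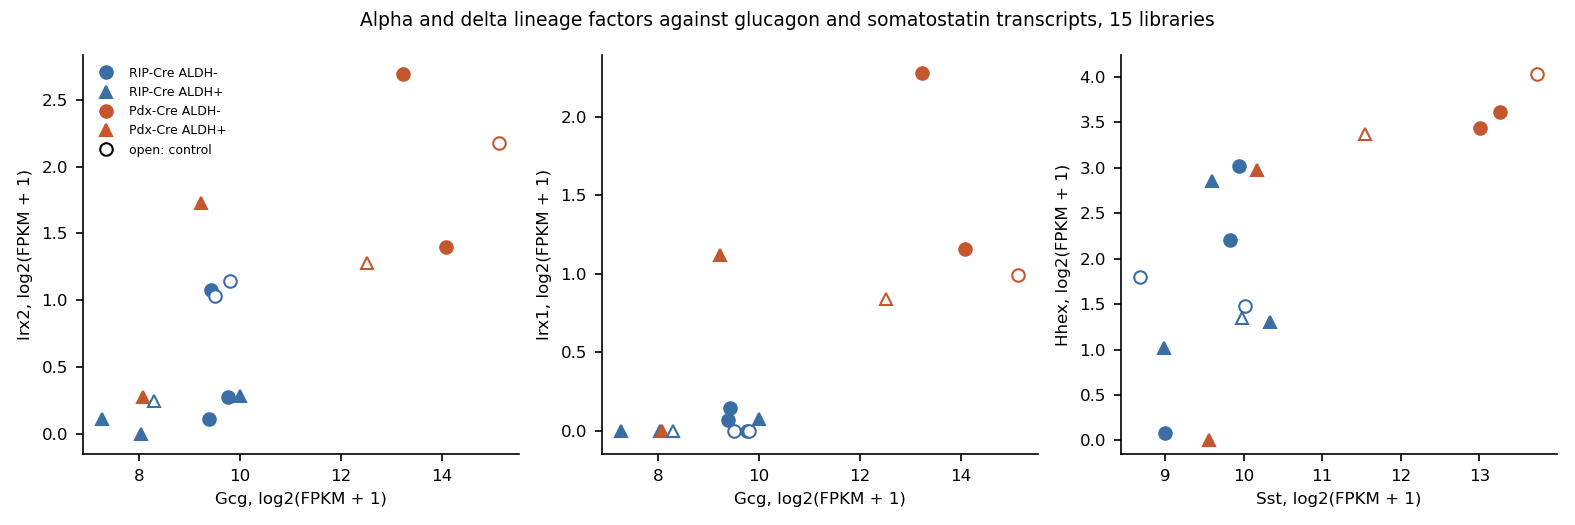
Irx2 and Irx1 against Gcg, and Hhex against Sst, in log2(FPKM + 1) of the deposited values on both axes, 1 point per library (circles ALDH-, triangles ALDH+, blue RIP-Cre, orange Pdx-Cre, open control). The 3 Pdx-Cre ALDH- libraries lie at the right of each panel, and Foxo knockout ALDH+ 4 lies among the RIP-Cre libraries at Irx1 and Hhex values of 0.

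The wider lists showed which companions moved. Of 15 alpha cell genes, the members Irx1, Irx2 and Pou3f4 included, 7 were tested. Of those tested 3 were higher in Pdx-Cre cells, Gcg and the member Irx2 among them, and none lower. Irx2 reached the minimum level through the Pdx-Cre libraries, so it is no independent companion. Of all genes tested, 9.73% passed in this comparison, 5.68% being higher and 4.05% lower. The median was 0.31, against -0.01 over all genes. Tm4sf4 was 0.31 (adjusted p = 0.19) and Ttr, a thyroxine carrier also made by alpha cells, was -0.54 (adjusted p = 0.276). Of 13 delta cell genes, the member Hhex included, 5 were tested, with a median of 1.27. Of those tested 2 were higher, Sst and Rbp4, a retinol carrier (1.90, adjusted p = 0.0202). The 1 lower gene was Casr, the calcium-sensing receptor (-0.94, adjusted p = 0.0297). Of 3 genes of polypeptide and epsilon cells, Ppy (2.31, adjusted p = 0.00349) and Ghrl (2.17, adjusted p = 0.0444) were higher and Pyy was 1.52 (adjusted p = 0.067). Ghrl was 42.2 and 47.7 FPKM in Foxo knockout ALDH- 4 and 5, 0 in the Pdx-Cre ALDH- control and at most 1.97 FPKM elsewhere. It reached the minimum level through those 2 knockout libraries, so its call is not independent of them.

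Between the ALDH populations 5.99% of all genes tested passed. No gene of the alpha list did, with a median of -0.45 over the 7 tested and -0.02 over all genes. Gcg was lower in ALDH+ cells by 2.13 on the fitted scale (adjusted p = 0.0671). None of the 5 delta genes passed (median -0.58), and Sst was -0.87 (adjusted p = 0.373). In lists of 5 or 7 genes, no call at all is near the share over all genes. Of 3 polypeptide and epsilon cell genes tested, Ppy and Pyy were both lower in ALDH+ cells (-2.10, adjusted p = 0.0131, and -2.07, adjusted p = 0.0298). Of all 11253 genes tested, 424 were lower there.

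Beta cell genes moved the other way between the drivers. Of 12 tested, 8 were lower in Pdx-Cre cells and none higher, with a median of -0.98, where 4.05% of all genes tested were lower. Slc2a2, the glucose transporter of mouse beta cells, fell by 2.87 (adjusted p = 3.39e-06), from 99.95 to 226.8 FPKM in RIP-Cre libraries to 8.61 to 24.6 FPKM in Pdx-Cre libraries. Nkx6-1, which represses alpha cell genes in beta cells, fell by 1.02 (adjusted p = 0.000102), and Pdx1 by 0.98 (adjusted p = 0.00464). The drivers did not overlap for Slc2a2, and Foxo knockout ALDH+ 4, at 24.6 FPKM, lay with the Pdx-Cre libraries for this gene although its Irx1, Hhex, Gcg and Sst did not.

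**Figure D4:**
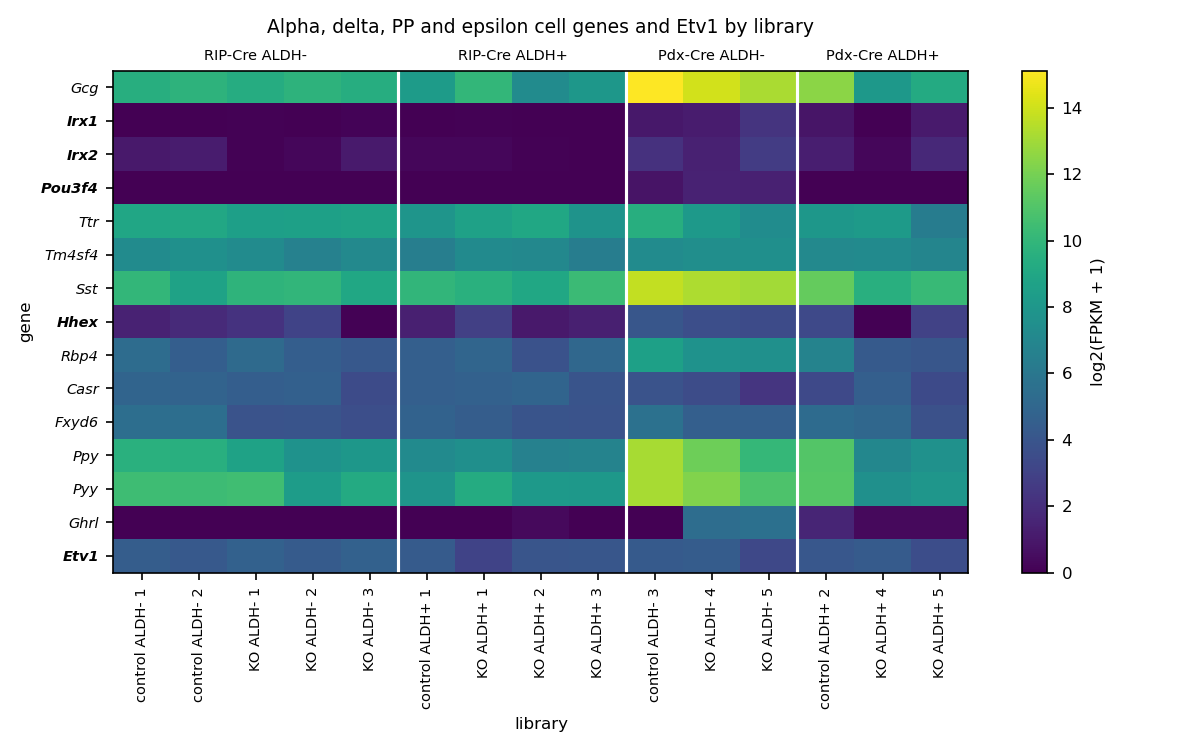
Levels of the alpha, delta, polypeptide and epsilon cell genes named in the text and of Etv1 (bottom line), as log2(FPKM + 1) of the deposited values, with libraries in columns ordered by driver and ALDH population. Gcg, Sst, Rbp4 and Ppy are brightest in the 3 Pdx-Cre ALDH- libraries and control ALDH+ 2, whereas Etv1 is even across columns.

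Markers of other cells also differed between the drivers, and their part in the results was not tested. The other 12 alpha genes summed to between 645 and 1740 FPKM in RIP-Cre libraries, 9985 to 36801 FPKM in Pdx-Cre ALDH- and 884 to 6277 FPKM in Pdx-Cre ALDH+ libraries. Gcg is among them and alone was between 9533 and 35838 FPKM in Pdx-Cre ALDH- libraries. These sums therefore mostly restate Gcg there, and do not show a rise of the remaining alpha genes. The 13 acinar genes summed to 21.3 to 37.3 FPKM in RIP-Cre libraries and to as much as 1489 FPKM in Pdx-Cre libraries. Of 11 tested, 2 were higher in Pdx-Cre, as were 5.68% of all genes tested, and Ctrb1 was among them (4.83, limma adjusted p = 0.0269). Ctrb1 was at most 1.58 FPKM in RIP-Cre libraries and reached the minimum level through Pdx-Cre libraries. It also picked out the 3 libraries rich in it, so its call is not independent of them. Of the immune list, the lysosomal Cd68 was tested and was higher (1.46, adjusted p = 0.00146), and the 7 genes listed summed to at most 37.9 FPKM in RIP-Cre libraries and to between 34.8 and 148 FPKM in Pdx-Cre libraries. Endothelial, mesenchymal and Schwann cell lists summed to at most 4.03, 1.20 and 3.68 FPKM in any library. Of the duct list, Krt19 was higher in Pdx-Cre cells (1.90, adjusted p = 0.0204), 1 of 5 tested, against 5.68% of all genes tested. Of 19 endocrine transcription factors tested 3 were lower and none higher, where 4.05% of all genes tested were lower and 5.68% higher. Nkx6-1 and Pdx1, already given above, are among these 3, so they are not separate calls.

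The genes whose levels ran most closely with each tested member were found by Pearson's r of log2 values over the 15 libraries, which share driver, ALDH population and depth. For Irx2 they were Ctsb (0.961), Crybb3 (0.932), Bsg (0.928), Arfgap3 (0.918) and Xbp1 (0.905). Ctsb is a lysosomal protease and Xbp1 a factor of the unfolded protein response, and Ctsb stayed near the top (0.923) once group and driver means were removed. For Hhex they were Nsf (0.845), Hars (0.828), Arg1 (0.816), Tsfm (0.815) and Polr1c (0.809), and for Etv1 Tbc1d17 (0.844), Elp3 (0.831), Zc3h7b (0.804), Rell2 (0.771) and Vapb (0.768). None of the genes named for Hhex or Etv1 was in the first 5 after group and driver means were removed.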

How the data were processed

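RNA of 15 sorted mouse islet populations was measured by RNA-seq. The authors deposited 1 table per library with FPKM and its confidence bounds in the layout of Cufflinks. The submitters' processing notes name bcl2fastq 1.8.4, TopHat2 2.0.4 and the build mm9, and the quantifier's version is not given in the sources used here. Of 23699 entries, repeated symbols (712 lines) and failed or too-deep estimates (63 lines, Ins1 and Ins2 among them) were left out, leaving 22924 genes. Fragments were recovered from the bounds, taken as 2 standard errors. With a tolerance of 0.02, 67.0% of the values below 500 fragments came out whole, as did 38 of 39 values above 0 of the members other than Etv1. Etv1, with 2 start sites, gave 1 of 15. An interval or minimum from fragments covers counting error only.

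To compare libraries, FPKM were scaled by TMM without weights (trimming 30% of M and 5% of A) and a pseudocount of 1 was added. Genes whose mean was at least 1 entered limma 3.58.1 (R 4.3.3), with Benjamini-Hochberg adjusted p-values called below 0.05. Folds of low genes are understated on this scale. Exact permutation tests were two-sided, with Python 3.11.15, and the procedures were tested on simulated data. The members and gene lists were chosen with earlier results of these data known. Named companions were the 4 genes of each list with the smallest p by ALDH and by driver, plus Gcg, Sst, the Foxo genes and Aldh1a3. Some genes that this rule names are not reported here, though they count in their lists.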

Additional observations from a re-analysis of the deposited data

Results flagged for a closer look

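Dixon's test was applied to each member in the groups of 5 libraries, 10 groups in all, and chance flags about 1 in 20. Irx1 stood apart at 1.17 FPKM in Foxo knockout ALDH+ 5. Irx2 stood apart in the same library at 2.31 FPKM and in Foxo knockout ALDH- 5 at 5.48 FPKM. All 3 values belong to Pdx-Cre libraries in groups that hold 3 RIP-Cre and 2 Pdx-Cre libraries, and both libraries were among the 3 with Ctrb1 above 100 FPKM. Their part in these values was not tested.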

How the results depend on the processing

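Depth limits Irx1 and Pou3f4, which rest on 154 and 36 fragments in all. With a pseudocount of 0.1 the driver difference of Irx2 was 2.43 (limma adjusted p = 0.0272). Without the minimum level, 5.31% of genes passed by driver. Irx1 was among them (1.06, limma adjusted p = 0.0213) and Pou3f4 was not (0.63, adjusted p = 0.071). Within ALDH- cells 1.08% passed, with Irx1 (1.445, limma adjusted p = 0.0428) and Pou3f4 (1.21, limma adjusted p = 0.000262) among them. Pou3f4 was at 0 in 12 of 15 libraries, so its low limma p rests on populations without spread (SE 0.089). The exact test within ALDH- libraries gave p = 0.0333 for each of these genes, the smallest possible.

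The number of genes passing by ALDH (674) was 403 after quantile normalization, 185 without the driver in the model, 156 in RIP-Cre and 4 in Pdx-Cre libraries alone, and 407 without the 3 libraries rich in Ctrb1, a setting chosen after seeing the data. The genotype count (13) was 40 without the minimum level, 22 with quality weights, 6 without the driver, 0 in Pdx-Cre libraries (limma, 369 at an unadjusted p below 0.05) and 5 without the Ctrb1 libraries. Without those libraries the driver counts (1095 in all, 246 in ALDH- and 174 in ALDH+ cells) were 123, 61 and 9, and quality weights gave 290 in ALDH+ cells. The driver by ALDH count (0) was 3 without the minimum level and 4 without the Ctrb1 libraries. The genotype by ALDH count (0) was 16 without the minimum level, 3 in RIP-Cre libraries and 2 without the Ctrb1 libraries. The higher and lower driver calls (639 and 456) were 523 and 546 with FPKM as deposited and 481 and 563 after quantile normalization, which also turned 250 and 424 by ALDH into 262 and 141. Leaving out 1 library gave 3 to 842 genes by ALDH, 1 to 15 by genotype, 703 to 1269 by driver, 63 to 333 in ALDH- and 37 to 241 in ALDH+ cells, 0 to 2 for driver by ALDH and 0 to 3 for genotype by ALDH. The causes were not tested.

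With the replicate number as a block, 9 genes passed by ALDH, against 674 without it, and 2 for driver by ALDH, and no member's call changed. Correlations of same-numbered knockout libraries were 0.0918, 0.0505, 0.037, 0.207 and 0.207, each higher than with any other number, but not all above 0.1, so the numbers were not taken to pair the libraries.

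The exact tests within 1 driver or 1 ALDH population were added after seeing the data. In them, Irx2 by ALDH was -1.03 in Pdx-Cre libraries. By driver in ALDH+ libraries, Irx1 was 0.638, Irx2 0.943, Pou3f4 0 and Etv1 0.169, while Hhex passed in ALDH- libraries (2.03). Without the Ctrb1 libraries Irx1 was 0.695 and Pou3f4 0.754, both calls being lost (exact p = 0.0833 each), and Etv1 was 0.166. For Pou3f4 that p was set by the number of ALDH- arrangements left. Hhex by genotype was 0.247 in RIP-Cre libraries. Leaving out 1 library, the driver difference ranged from 0.798 to 1.27 in Irx1, 0.920 to 1.42 in Irx2, 0.453 to 0.736 in Pou3f4, 1.01 to 1.84 in Hhex and -0.312 to -0.0336 in Etv1. The ALDH difference ranged from -0.439 to -0.049 in Irx1, -0.881 to -0.468 in Irx2, -0.525 to -0.323 in Pou3f4, -0.966 to -0.320 in Hhex and -0.509 to -0.226 in Etv1. The genotype difference ranged from -0.0967 to 0.278 in Irx1, -0.619 to -0.111 in Irx2, -0.0139 to 0.283 in Pou3f4 (-0.0134 in another setting), -0.622 to 0.0852 in Hhex and -0.305 to -0.121 in Etv1.

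Other reversals were of differences that did not pass. In limma, Hhex by genotype was 0.293 in RIP-Cre libraries and 0.0344 without Foxo knockout ALDH+ 4 (range without 1 library -0.545 to 0.0344). Etv1 by driver was 0.0378 without Foxo knockout ALDH- 5 (range -0.313 to 0.0378) and 0.165 without the Ctrb1 libraries, and in ALDH+ cells -0.0999 and -0.127 without Foxo knockout ALDH+ 1 and 4 (range -0.127 to 0.311). Hhex by driver in ALDH+ cells was -0.249 with a pseudocount of 0.1, -0.234 without either control ALDH+ library, -0.22 without Foxo knockout ALDH+ 5 (range -0.234 to 1.58) and -1.73 without the Ctrb1 libraries. For genotype by ALDH, Etv1 was 0.461 and Irx2 -0.0588 in Pdx-Cre libraries, and Hhex was 0.233 in RIP-Cre libraries and 0.262 without Foxo knockout ALDH+ 4 (range -1.09 to 0.262).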
